A study of Mus musculus with 12 samples.

Results

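The cells described here are 200 early secretory precursor candidates of the mouse small intestine, chosen from 27881 cells of a deposited single-cell transcriptome table (0.717%). A cell qualified if Clca1 and Fcgbp, which encode mucus-associated proteins of goblet cells, and Chga and Neurod1, a granule protein gene and a transcription factor gene of enteroendocrine cells, all had the value 0. This held for 8373 cells (30.0%). The 200 cells with the highest mean of Atoh1, Dll1 and Hes6, each as the natural log of 1 plus the value per 10000 of the cell total, were taken. They are called precursor-marker cells below, because 88 of them rest on 1 marker alone. They were set against 15472 other cells with a value for Top2a, a topoisomerase gene of dividing cells, or Lgr5, a stem cell receptor gene, called other crypt cells. Atoh1, Dll1 and Hes6, the 4 genes required at 0, Top2a and Lgr5 entered the choice of cells, so their levels are descriptions and were left out of all counts.

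The intestine of adult Lgr5DTR-GFP mice, a strain with a reporter at the stem cell gene Lgr5, was divided into 30 segments, and cells of each segment were tagged with MULTI-seq, a method that marks cells with lipid-anchored DNA barcodes. The table belongs to the 8 samples of the diet group, epithelial cells sorted as negative for the leukocyte marker CD45 and positive for the epithelial marker EpCAM, and the labels name no diet for any of them. The 2 progenitor samples and the 2 total epithelium samples were not analysed here. Cell barcodes fall into 8 numbered sets that could not be matched to the sample titles, so the table is 1 pooled sample without replicates, no test was run, and values per barcode set show the spread. The values are whole numbers on a scale that is not given, with cell totals of 2764 to 9739. Their depth is unknown, and expression values therefore carry no counting interval.

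In the crypts of the intestine, stem cells and their dividing daughters choose between absorptive and secretory fates by lateral inhibition. A cell that expresses the transcription factor Atoh1 displays the ligands Dll1 and Dll4, which activate Notch receptors on its neighbours, and active Notch induces Hes1, a repressor of Atoh1. Hes6 encodes a relative of Hes1 that counteracts it. Cells that keep Atoh1 become goblet, Paneth or enteroendocrine cells under further factors such as Spdef, Gfi1 and Neurog3. Cells early on this path are rare, and most of these factors are transcribed at low levels.

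The promoters of 2 marker genes and of 2 genes that were higher in these cells are shown to place the genes and the E-box, the letters CANNTG that basic helix-loop-helix factors such as Atoh1 bind. E-boxes are in capitals. Each sequence holds 250 bases before and 50 after a transcription start, from RefSeq on GRCm38.p6, and each is on the strand of its gene. The letters read the same on both strands, were found in 72.3% of 32851 such promoters, and mark no binding site by themselves.
Dll1 (start site 2, chr17:15376883-15377182, minus strand): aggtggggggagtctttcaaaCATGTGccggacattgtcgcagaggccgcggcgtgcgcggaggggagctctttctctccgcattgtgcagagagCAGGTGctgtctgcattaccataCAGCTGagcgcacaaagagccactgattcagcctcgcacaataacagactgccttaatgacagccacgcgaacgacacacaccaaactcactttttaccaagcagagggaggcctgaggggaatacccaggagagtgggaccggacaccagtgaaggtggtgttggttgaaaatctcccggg
Hes6 (start site 1, chr1:91413989-91414288, minus strand): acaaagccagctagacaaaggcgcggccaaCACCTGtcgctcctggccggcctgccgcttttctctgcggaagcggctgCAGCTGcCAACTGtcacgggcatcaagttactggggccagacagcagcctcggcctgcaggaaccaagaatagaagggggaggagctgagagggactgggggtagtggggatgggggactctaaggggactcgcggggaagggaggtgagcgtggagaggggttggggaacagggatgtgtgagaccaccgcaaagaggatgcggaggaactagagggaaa
Sox4 (chr13:28953650-28953949, minus strand): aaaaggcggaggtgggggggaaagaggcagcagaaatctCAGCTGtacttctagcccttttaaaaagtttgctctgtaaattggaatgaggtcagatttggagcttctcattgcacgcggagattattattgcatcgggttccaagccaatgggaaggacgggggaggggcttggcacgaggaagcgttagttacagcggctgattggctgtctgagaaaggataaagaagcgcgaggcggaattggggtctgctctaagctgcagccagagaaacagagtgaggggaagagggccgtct
Lfng (chr5:140607091-140607390, plus strand): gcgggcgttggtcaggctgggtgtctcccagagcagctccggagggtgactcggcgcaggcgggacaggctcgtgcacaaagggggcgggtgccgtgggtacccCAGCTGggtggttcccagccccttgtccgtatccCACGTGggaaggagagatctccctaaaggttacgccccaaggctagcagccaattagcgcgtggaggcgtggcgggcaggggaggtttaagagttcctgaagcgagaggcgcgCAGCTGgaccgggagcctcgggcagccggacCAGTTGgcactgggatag
The Dll1 and Hes6 sequences hold 3 E-boxes each, the Sox4 sequence 1 and the Lfng sequence 4. The other start site of Dll1 and that of Hes6, not printed, hold 1 each. The windows of Atoh1, Dll4 and Rgcc hold 0.

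Most precursor-marker cells carried Hes6, and few carried all markers. Dll1 with Hes6 was found in 72 cells and Hes6 alone in 59. Atoh1 with Hes6 was found in 24 cells, Dll1 alone in 17, Atoh1 alone in 12, Atoh1 with Dll1 in 9 and all markers together in 7. Among all 8373 cells with the 4 genes at 0, 165 carried 2 or 3 of the markers, and 112 of these were among the 200. The 88 cells with 1 marker had a value of at least 2 for it. They were cells with few detected genes, a median of 1123 where the marker was Atoh1, 1281 for Dll1 and 2152 for Hes6, against 2787 in the 112 cells with 2 or 3 markers. The score divides by the cell total, and the median total was 4815.5 in precursor-marker cells and 5856.5 in other crypt cells. Median detected genes were 2349.5 and 2350, and the median mitochondrial share was 7.28% and 8.56%.

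The score had no gap at the border of the choice. It ran from 0.546 to 1.37 with a median of 0.650, and the 5 cells just inside the border had 0.5464 to 0.5479, against 0.5442 to 0.5461 in the 5 cells just outside. As set by the choice, Atoh1 was at 63.5 ppm in precursor-marker cells and 6.15 ppm in other crypt cells, where ppm expresses a gene as a fraction of the total over all genes. Dll1 was at 137 and 12.1 ppm, and Hes6 at 266 and 38.9 ppm. The gene Atoh1 lies on chromosome 6 (64729125 to 64731245, plus strand, GRCm38), Dll1 on chromosome 17 (15367354 to 15376872, minus strand) and Hes6 on chromosome 1 (91411483 to 91414038, minus strand).

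Barcode sets 1 and 4 held almost none of the cells. The 8 sets held 2, 44, 16, 1, 23, 19, 60 and 35 precursor-marker cells in the order of their numbers. As a share of the set this was 0.0630%, 0.960%, 0.446%, 0.0437%, 0.819%, 0.648%, 1.13% and 1.10%. Fcgbp had a value in 93.2% of cells of set 1 and in 95.7% of set 4, and 3.53% and 1.88% of their cells had all 4 genes at 0 and could be chosen, against a median of 34.5% over the 8 sets. Of the cells that could be chosen, 1.77% to 2.95% were (median 2.20%). Of the 200 cells, 2 share a barcode with a cell of another set, out of 80 such pairs in the table. A doublet caller marked 0 of the 200 cells and 45 of all 27881 (0.161%).

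**Figure D1:**
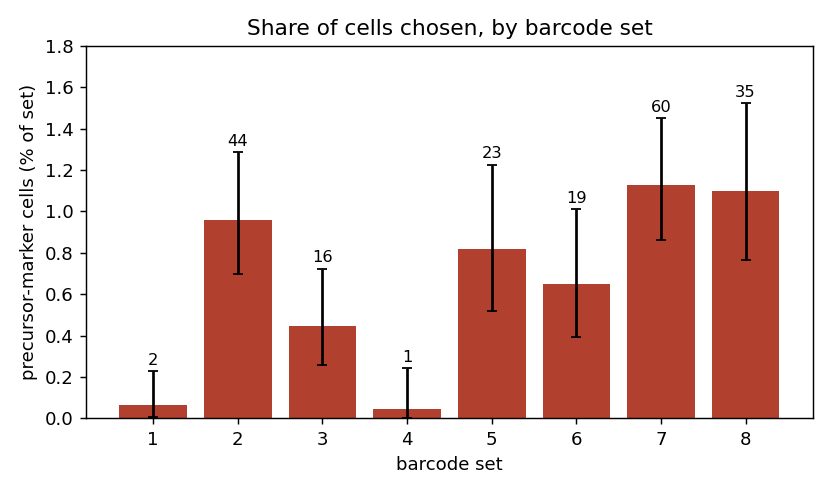
Share of all cells of each barcode set that were chosen as precursor-marker cells (percent, bars) with exact binomial 95% intervals that cover counting error only; the number above each bar is the number of cells. Sets 1 and 4 hold 2 cells and 1 cell, and the other sets between 16 and 60.

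Whether the markers go together was examined by leaving each one out of the score in turn. Among the 200 cells highest in Dll1 and Hes6, Atoh1 had a value in 5.50% (exact 95% interval 2.78 to 9.63), against 2.35% (1.96 to 2.81) of the other crypt cells with the 4 genes at 0. In the 200 cells highest in Atoh1 and Hes6, Dll1 had a value in 11% (7.02 to 16.2), against 5.09% (4.50 to 5.72). The intervals of Dll1 do not overlap and those of Atoh1 overlap slightly, and most cells lacked the left-out marker in both cases. In 2000 enterocyte-score cells, defined below and not chosen with the 4 genes at 0, Dll1 had a value in 9.95% (8.67 to 11.3). The 11% therefore does not stand above that background. Atoh1 had a value in 2.15% (1.56 to 2.89) of the enterocyte-score cells and Hes6 in 12.5%. Hes6 had a value in 15.5% (10.8 to 21.3) of the 200 cells highest in Atoh1 and Dll1, against 22.9% (21.8 to 24.1), while its pooled level was 44.9 ppm against 44.5 ppm. By level within barcode sets, the left-out marker was higher in 4 of 6 sets for Atoh1, in 5 of 5 for Dll1 and in 5 of 6 for Hes6, so for Hes6 the share and the level by set differ in direction. Those 200 cells had a median of 2039 detected genes, against 2653 in the cells they were set against.

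Against all other crypt cells, a transcription factor of secretory differentiation was among 3 genes that were called higher. To be called, a gene needed a mean level of 20 ppm or more over both groups, a log2 difference (with 5 ppm added to both levels) of 1 or more in size, and one direction in all 6 barcode sets with 15 or more precursor-marker cells. Of 7354 genes considered, 3 were called higher (0.0408%) and 4 lower (0.0544%). The 3 were Sox4, a high-mobility-group factor that acts in enteroendocrine and tuft cell differentiation in mice, Rgcc, a cell cycle regulator, and Zkscan8, a zinc finger gene. The 4 lower genes were Tff1 and Gkn1, secreted products of stomach surface cells, Rbp7, a retinoid-binding protein gene, and Pgm2l1, an enzyme gene of sugar phosphate metabolism.

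Sox4 (chromosome 13, 28948919 to 28953713, minus strand), whose promoter is printed above, was at 134, 245 and 436 ppm as the lowest, median and highest of the 6 sets in precursor-marker cells, against 107, 138 and 172 ppm in other crypt cells. The groups overlapped, through set 3 with 134 against 123 ppm. The pooled levels were 297 and 143 ppm, a log2 difference of 1.03 (SD over 6 sets 0.47). Sox4 had a value in 53.5% of precursor-marker cells (46.3 to 60.6) and in 39.9% of other crypt cells. In other crypt cells with the 4 genes at 0 the share was 47.4%, which lies within that interval. It was 4.40% in 2000 enterocyte-score cells. These are the cells without Top2a and Lgr5 that were highest in 6 enterocyte genes, and they serve as the background for a crypt gene. For Rgcc (chromosome 14, 79288756 to 79301645, minus strand) the levels were 40.2, 58.7 and 118 ppm over sets, against 26.1, 32.0 and 36.5 ppm, and the groups did not overlap. Its log2 difference was 1.02 (SD 0.44), and it had a value in 27.0%, 13.3% and 0.75% of precursor-marker, other crypt and enterocyte-score cells. For Zkscan8 (chromosome 13, 21513222 to 21531120, minus strand) they were 19.6, 34.9 and 67.0 ppm, against 9.87, 14.3 and 16.8 ppm, also without overlap, a log2 difference of 1.03 (SD 0.57). All 3 lie close to the threshold, and their calls were lost with cells matched on detected genes, where Sox4 was at 0.95, Rgcc at 0.94 and Zkscan8 at 0.84, and against other crypt cells with the 4 genes at 0. Without set 7 Sox4 was at 0.95 and Rgcc just under 1, and without set 8 they were at 0.91 and 0.99. Rgcc was at 0.93 without set 6, and Zkscan8 at 0.90 without set 2 and 0.93 without set 3.

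**Figure D2:**
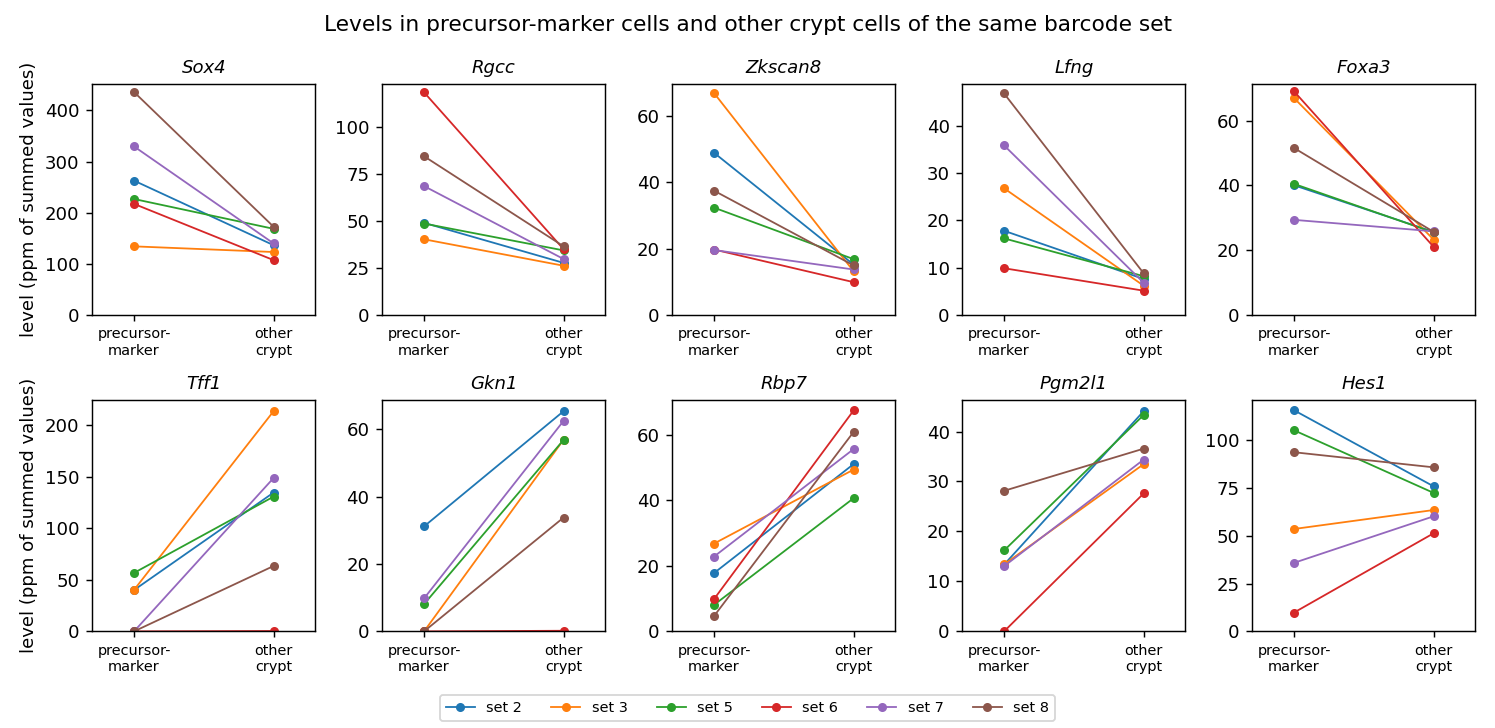
Levels of 10 genes (ppm of summed values) in precursor-marker cells and in other crypt cells of the same barcode set; each line joins the values of 1 of the 6 sets with at least 15 precursor-marker cells. Sox4, Rgcc, Zkscan8, Lfng and Foxa3 slope down to the right in all 6 sets. Tff1, Gkn1, Rbp7 and Pgm2l1 slope up, though Tff1 and Gkn1 are close to 0 in both groups of set 6. The lines of Hes1 cross.

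The lower genes were low in most sets. Rbp7 was at 4.69, 13.8 and 26.8 ppm as the lowest, median and highest set in precursor-marker cells, against 40.7, 53.4 and 67.4 ppm in other crypt cells, with no overlap and a log2 difference of -1.43 (SD 0.75). Pgm2l1 was at 15.2 ppm against 37.2 ppm (-1.06). Tff1 was at 18.0 ppm against 118 ppm (-2.42, SD 1.78) and Gkn1 at 10.4 ppm against 50.5 ppm (-1.85, SD 1.31), both with overlap. They had a value in 12 and 9 precursor-marker cells. In set 6 Tff1 was at 0 against 0.37 ppm and Gkn1 at 0 against 0.18 ppm. A single unit equals 9.87 ppm in the precursor-marker cells of that set, so its direction carries no weight for these 2 genes. The shares of cells with a value differed less, with 6% (3.14 to 10.2) and 8.70% for Tff1 and 4.5% (2.08 to 8.37) and 4.29% for Gkn1 in precursor-marker and other crypt cells. The stomach genes as a list summed to 0 to 129 ppm over sets in precursor-marker cells and to 1.64 to 562 ppm in other crypt cells, with Muc5ac and Muc6 at 0 in precursor-marker cells. Precursor-marker cells were free of goblet gate genes by the choice and other crypt cells were not. Between cells that all have the 4 genes at 0, the same 4 stomach genes had a median of -1.48.

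Of the Notch genes, Lfng and Dll4 had the largest differences, both at low levels. Lfng (chromosome 5, 140607320 to 140615545, plus strand), a sugar transferase that modifies Notch receptors, was at 9.87, 22.3 and 46.9 ppm over the 6 sets, against 5.12, 7.20 and 8.81 ppm, without overlap. The pooled levels were 29.4 and 7.26 ppm, a log2 difference of 1.49 (SD 0.59) that did not enter the count because the mean of both was under 20 ppm. Lfng had a value in 14.0% of precursor-marker cells (9.51 to 19.6), 3.81% of other crypt cells and 0.35% of enterocyte-score cells. Dll4 (chromosome 2, 119325784 to 119335962, plus strand), the other Notch ligand of the intestine, was at 17.1 and 4.19 ppm, also under the filter, and was higher in 4 of 6 sets. It had a value in 8% (4.64 to 12.7), 2.18% and 3.10% of precursor-marker, other crypt and enterocyte-score cells. Over the whole list of Notch ligands, receptors and modifiers, 0 of 13 genes considered were called, and the median log2 difference was 0.03. Notch1, the receptor, was at 75.8 and 52.5 ppm (0.49), and Numb, an inhibitor of Notch, at 129 and 179 ppm (-0.46).

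No Notch target gene considered was called, and their directions differed between barcode sets. Hes1 (chromosome 16, 30064384 to 30067796, plus strand) was at 73.0 ppm in precursor-marker cells and 68.9 ppm in other crypt cells, a log2 difference of 0.08, with a range over sets of 9.87 to 116 against 51.4 to 85.9 ppm. It was higher in 3 of 6 sets and lower in 3. Of 5 targets considered, 0 were called, with a median of 0.08 that ran from -0.77 to 0.41 over sets. The 5 were Hes1, Olfm4, Id1, Id2 and Id3, and whether the Id genes report Notch activity here was not tested. Olfm4, a stem cell gene activated by Notch, was at 2673 and 2366 ppm (0.18), and Nrarp, a feedback inhibitor, was at 18.0 and 19.7 ppm. Hes5 was at 0.948 and 1.11 ppm, too low to compare.

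Of the secretory fate factors, Sox4 alone was called among 12 considered (1 of 12, beside 0.0408% of all genes), and the list median was 0.15 beside 0.01 for all genes. Foxa3, a forkhead factor of the secretory lineage, was at 43.6 and 24.96 ppm (0.70), was higher in all 6 sets and did not overlap. Foxa1 was at 32.2 and 18.9 ppm (0.64), higher in 5 of 6 sets, and Klf4, a factor of goblet cells and differentiated epithelium, at 45.5 and 56.2 ppm (-0.28). The factors of single branches were close to absent. Gfi1 had a value in 1 of 200 precursor-marker cells (0.50%, 0.0127 to 2.75), against 0.401% of other crypt cells and 0.40% of enterocyte-score cells. Spdef had a value in 1% (0.121 to 3.57), against 3.08% and 2.10%, and Neurog3 in 2.00% (0.548 to 5.04), against 0.743% and 0.05%. For Gfi1 and Spdef the intervals include the share in enterocytes, and no difference was detectable.

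Product lists of mature secretory cells had medians below 0 against other crypt cells, which, unlike the precursor-marker cells, could carry goblet and endocrine gate genes. The goblet cell list had a median of -0.19, the Paneth cell list -0.20 and the enteroendocrine product list -0.22, each with 0 genes called of 14, 13 and 10 considered. Against other crypt cells with the same 4 genes at 0 the same genes had medians of 0.49, 0.41 and 0.44, the opposite direction. Muc2, the main intestinal mucin, had a value in 27.5% of precursor-marker cells (21.4 to 34.2), against 48.5% of other crypt cells. In other crypt cells with the same 4 genes at 0 the share was 25.6%. In enterocyte-score cells, which were not chosen with these genes at 0, it was 63.75%. Weighted to the spread of the precursor-marker cells over barcode sets, the Muc2 share in enterocyte-score cells was 39.2%. Lyz1, the Paneth cell lysozyme, had a value in 56.0%, 56.5% and 48.65% of precursor-marker cells, of other crypt cells with the 4 genes at 0 and of enterocyte-score cells. Chgb, an endocrine granule protein, had a value in 19.5%, 20.2% and 19.15%. Counting a value of at least 2, the Muc2 share was 19.5%, against 10.4% in other crypt cells with the 4 genes at 0. Against the same cells, Zg16 had a value in 57.5% (50.3 to 64.4) and 44.0%. Tff3 had one in 73.5% (66.8 to 79.5) and 55.1%, and Agr2 in 38.0% (31.2 to 45.1) and 30.5%. In enterocyte-score cells these shares were 88.35%, 87.9% and 37.7%. The Muc2 and Chgb shares with any value do not stand above the background in enterocytes. The Lyz1 share, though above it, is that of other crypt cells with the 4 genes at 0. None of these genes was read as a branch marker.

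The 4 early endocrine factors considered, of 23 in the list, had a median above 0. The direction of the G2/M genes depended on the cells they were set against. The 4 enteroendocrine precursor factors considered had a median of 0.52, with Sox4 called, Mycl of the Myc family at 29.4 and 14.4 ppm (0.82, higher in 5 of 6 sets), Tox3 at 0.22 and Rfx3 at -0.10. Neurod2, Pax4 and Insm1 were at 0 in precursor-marker cells, where a limit of 3 cells allows a share of cells with a value of up to 1.5% (exact 95% upper limit 1.83%). At least 1 of Neurog3, Insm1, Pax4 and Neurod2 had a value in 2.00% of precursor-marker cells (0.548 to 5.04). The share was 2.43% in other crypt cells and 2.12% in those with the 4 genes at 0. The G2/M list had a median of -0.14 with 0 of 20 called, and Mki67, the proliferation marker, was at 274 and 315 ppm (-0.20), lower in all 6 sets. Other crypt cells were chosen by Top2a, itself a gene of this phase, which had a value in 47.5% of precursor-marker cells and 72.9% of other crypt cells. The G2/M median was 0.23 against cells with Lgr5 and 0.30 against all other cells, and Mki67 had a value in 46.5% of precursor-marker cells and 46.6% of all other cells with the 4 genes at 0. The G1/S list had 0.11 (0 of 15) and the cell cycle exit list 0.29 (0 of 9), with Gadd45a, a growth arrest gene, at 33.2 and 16.6 ppm (0.82). The cell cycle exit median was 0.0012 without set 6, and -0.16 in the precursor-marker cells with Top2a or Lgr5. The stem cell list had a median of 0.27 (0 of 20), led by Ascl2, a Wnt-driven stem cell factor, at 66.3 and 34.7 ppm (0.84, higher in all 6 sets). The secretory pathway machinery, which is abundant in mature secretory cells, had -0.19 (0 of 24), and Tram1, a component of protein translocation, was at 48.3 and 77.6 ppm (-0.63).

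**Figure D3:**
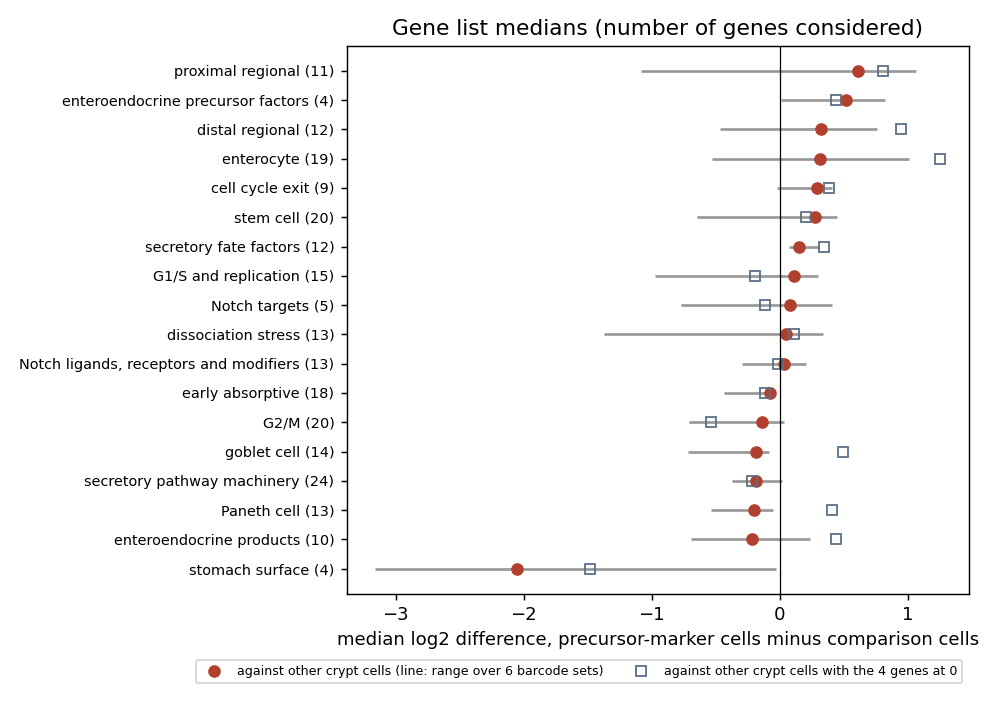
Median log2 difference of each gene list (number of genes considered in brackets), precursor-marker cells minus all other crypt cells (filled points, with the range over 6 barcode sets as a line) and minus other crypt cells with the 4 genes at 0 (open squares, over the same genes). Goblet, Paneth and enteroendocrine product lists lie below 0 against all other crypt cells and above 0 against cells chosen with the same 4 genes at 0; the enterocyte list is at 0.31 and 1.25.

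Absorptive genes were unevenly spread. The enterocyte list had a median of 0.31 (0 of 19 called) and summed to 3757 to 39507 ppm over sets in precursor-marker cells, against 3634 to 22053 ppm in other crypt cells. The early absorptive list had -0.08 (1 of 18 lower, Rbp7, beside 0.0544% of all genes). The regional lists had medians of 0.61 (proximal, 0 of 11) and 0.32 (distal, 0 of 12), and dissociation stress genes 0.05 (0 of 13). These medians moved with single sets, and leaving out 1 set at a time gave 0.03 to 0.50 for the enterocyte list, -0.16 to -0.01 for the early absorptive, 0.23 to 0.77 for the proximal, 0.12 to 0.53 for the distal and -0.10 to 0.12 for the stress list. The stomach list had -2.05 with 2 of 4 called lower, beside 0.0544% of all genes. No tuft cell gene reached the filter, and that list summed to 73.9 and 83.9 ppm. Markers of cells outside the epithelium were close to 0 in precursor-marker and other crypt cells, with sums of 3.79 and 6.75 ppm for T cells, 4.74 and 3.71 for B or plasma cells, 14.2 and 16.3 for myeloid, 3.79 and 6.52 for stromal, 8.53 and 5.25 for endothelial and 1.90 and 11.02 for red blood cells.

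Enterocyte genes were highest in the precursor-marker cells without Top2a and Lgr5. Of the 200 cells, 145 (72.5%, 65.8 to 78.6) had Top2a or Lgr5, against 63.4% (62.4 to 64.5) of the 8173 other cells with the 4 genes at 0. The 55 cells without both genes had a median enterocyte list level of 13423 ppm per cell, against 622 ppm in the 145 cells with one of them. Sucrase-isomaltase (Sis), an enterocyte disaccharidase, was at 1502 ppm in the 55 and 133 ppm in the 145 cells. Sox4 was at 97.9 ppm in the 55 and 363 ppm in the 145 cells, Rgcc at 15.1 and 86.1 ppm, and Ascl2 at 15.1 and 83.6 ppm. Dll1 was at 151 and 133 ppm and Atoh1 at 71.5 and 60.8 ppm, levels set by the choice of all 200 cells on these markers. The 55 cells had a median of 1703 detected genes, and the 145 cells 2457. When all 200 cells were set against the 5185 other crypt cells with the 4 genes at 0, 27 genes of 7437 were called higher (0.363%) and 3 lower (0.0403%). Among the higher ones were absorptive genes such as Slc27a4, a fatty acid transport protein gene, and Pdzk1, a brush border scaffold gene. Hepacam2, a gene of the secretory fate factor list, and Arhgap24 were also among the higher genes. The lower ones were Rbp7, Pgm2l1 and Dmbt1.

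Because other crypt cells were defined by Top2a or Lgr5 and could carry goblet genes, the 145 cells were also compared with the 5185 other crypt cells that have the same 4 genes at 0. This comparison was chosen after the data had been seen, and uses the same rule over the 4 barcode sets (2, 5, 7 and 8) that held 33, 18, 45 and 29 of the 145 cells. Of 7434 genes considered, 17 were called higher (0.229%) and 20 lower (0.269%). The higher genes were Selenom, Kit, Lfng, 5330417C22Rik, Arhgap24, Tff3, Mex3a, Abcc4, Sox4, Rab15, Rgcc, Marcksl1, Arl3, Ndrg1, Dmpk, Sorcs2 and Morn2. The lower genes included Fabp6, Tff1, Rbp7, Bche, Car4, Slc35b1, Chp2, Cyp51, Dmbt1, Rnf152, Elovl6, Rragd, Slc7a8, Bpnt1, Coro2a, Adh1, Gm20528, Apol10a and Pgm2l1. Against all other crypt cells the 145 cells gave 18 higher (0.245%) and 53 lower genes (0.722%), of which 11 and 13 were shared with the comparison of matched cells. Median detected genes were 2457 in the 145 cells and 2640 in the 5185 cells. All 37 genes kept their direction in 19 alternatives, and with cells matched on detected genes 14 of the 17 and 17 of the 20 were still called. With 400 chosen cells 5 and 6 were still called, Sox4, Rgcc and Lfng not among them, and with a level filter of 50 ppm 6 and 6. Without set 8, 12 and 14 were still called, among a total of 24 higher and 30 lower genes, and without set 7, 14 and 17 among 29 and 55. In both cases 3 sets decided the direction. Without set 6, where 4 sets decided it, the totals were 19 and 36, and the cause of these changes was not tested.

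Among the higher genes, the groups of Kit, Sox4, Lfng and Selenom did not overlap. Kit, a receptor tyrosine kinase found on secretory cells of the crypt base in mouse colon, was at 41.0, 58.4, 46.2 and 57.1 ppm in sets 2, 5, 7 and 8, against 9.80, 12.3, 14.4 and 10.8 ppm, with no overlap. Its log2 difference was 1.79, and it had a value in 20% of the 145 cells, in 5.54% of the 5185 cells and in 1.40% of enterocyte-score cells. Lfng was at 17.6, 19.5, 37.8 and 51.4 ppm, against 8.65, 9.98, 8.67 and 7.90 ppm, a log2 difference of 1.52. Sox4 was at 340, 273, 352 and 514 ppm, against 138, 174, 169 and 178 ppm, a log2 difference of 1.16, and here the groups did not overlap. Selenom, a selenoprotein of the endoplasmic reticulum, had the largest difference of the 17 genes (1.97), at 35.1, 68.2, 159 and 85.7 ppm, against 17.4, 14.5, 28.4 and 11.2 ppm.

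The gene 5330417C22Rik was at 146, 253, 159 and 257 ppm in the 4 sets, against 58.8, 68.1, 72.2 and 66.0 ppm (1.47), and had a value in 41.4% of the 145 cells, against 23.2% of the 5185 cells and 6.45% of enterocyte-score cells. Sorcs2, a sorting receptor gene, was at 196 and 95.3 ppm (1.01), and Mex3a, an RNA-binding protein of slowly dividing stem cells, at 35.5 and 12.8 ppm (1.19). Marcksl1, which binds actin, was at 46.9 and 18.9 ppm (1.12). The groups of Mex3a, Marcksl1 and Tff3 overlapped. Tff3, the trefoil peptide of goblet cells, was at 755 and 328 ppm (1.19) but had a value in 87.9% of enterocyte-score cells, above its 68.3% in the 145 cells. The enterocyte-score cells were not chosen with the 4 genes at 0, and 70.5% of them had a value for Fcgbp. In the 5185 cells, which have these genes at 0, the Tff3 share was 55.1%. Whether Tff3 marks goblet expression here was not tested, and it was not read as such. Foxa3 was just under the rule, at 50.7 and 23.0 ppm (0.99). Dll4 at 20.3 and 2.95 ppm and Cbfa2t3, a transcriptional corepressor gene, at 29.1 and 4.89 ppm were higher in all 4 sets but under the level filter.

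Fabp6 had the largest difference of the 20 lower genes, while of the enterocyte list 0 of 17 genes were called. The median of the enterocyte list was nevertheless below 0 in each barcode set used, at -1.24 to -0.19. Fabp6, the bile acid-binding protein of the ileum, was at 17.6, 29.2, 122 and 91.4 ppm in sets 2, 5, 7 and 8, against 276, 172, 530 and 928 ppm, with no overlap and a log2 difference of -2.70. The shares of cells with a Fabp6 value differed less, with 17.9% of the 145 cells and 20.8% of the cells they were set against. Rbp7 was at 17.6, 9.74, 12.6 and 5.71 ppm, against 72.5, 53.8, 58.6 and 78.7 ppm (-2.32). Car4, a membrane carbonic anhydrase, was at 11.4 and 44.3 ppm (-1.59), Bche, a cholinesterase gene, at 10.1 and 45.5 ppm (-1.74), and Dmbt1, a secreted glycoprotein of the crypt epithelium, at 514 and 1163 ppm (-1.17). Elovl6, a fatty acid elongase, was at 57.0 and 132 ppm (-1.14), and Cyp51, an enzyme of cholesterol synthesis, at 19.0 and 49.8 ppm (-1.19). Tff1 was lower here too, at 7.598 and 65.1 ppm (-2.48), between cells that all lack goblet gate genes. It had a value in 5 of the 145 cells, its groups overlapped, and with cells matched on detected genes it was at -0.69 and not called.

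**Figure D4:**
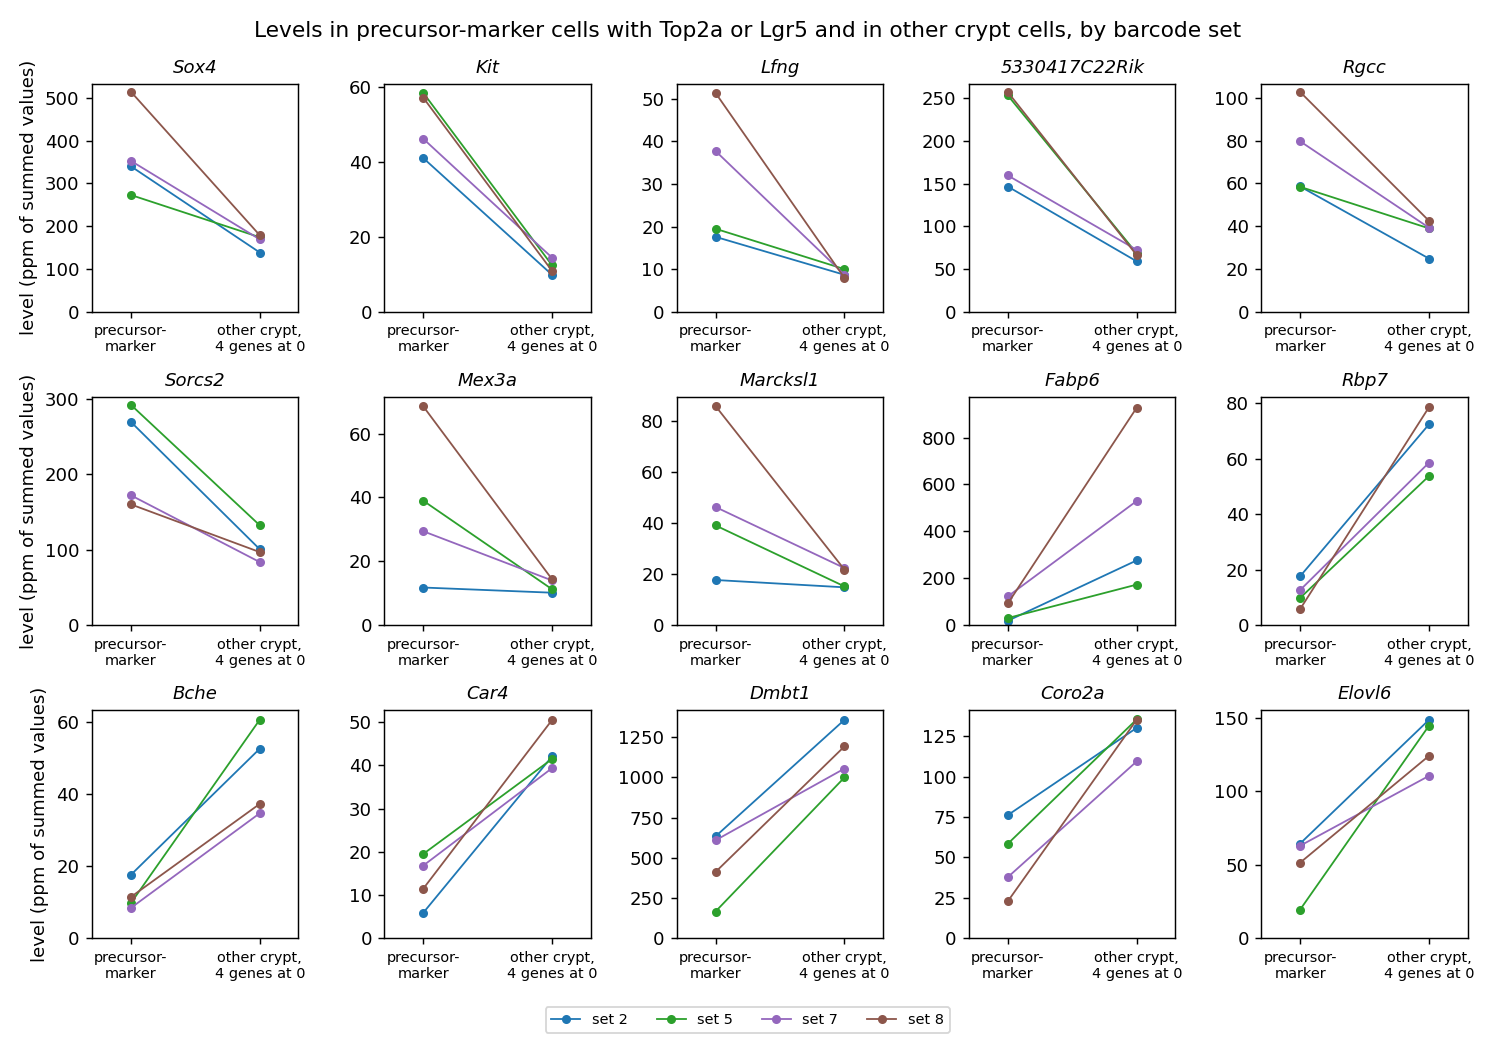
Levels of 15 genes (ppm of summed values) in the 145 precursor-marker cells with Top2a or Lgr5 and in other crypt cells with the 4 genes at 0; each line joins the values of 1 of 4 barcode sets. The 8 genes from Sox4 to Marcksl1 are higher in precursor-marker cells in all 4 sets, and the 7 genes from Fabp6 to Elovl6 lower.

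List medians in these 145 cells against the 5185 were 0.41 for stem cell genes, where all 20 considered were above 0 and 0 were called, and 0.22 for secretory fate factors (1 of 10 called higher, Sox4). They were 0.19 for Notch ligands, receptors and modifiers (1 of 14 higher, Lfng), 0.26 for goblet genes (1 of 13 higher, Tff3), 0.05 for enterocyte genes (0 of 17), -0.23 for the secretory pathway machinery (0 of 26), -0.05 for Notch targets (0 of 6), -0.20 for G2/M (0 of 20), -0.01 for G1/S (0 of 17) and -0.30 for early absorptive genes (3 of 17 lower, Rbp7, Car4 and Dmbt1). Over all genes 0.229% were called higher and 0.269% lower, and the median was -0.02. The enterocyte list was below 0 in all 4 sets, with medians of -1.24 to -0.19, opposite in direction to its pooled 0.05. The cause of this was not tested, and the pooled value was not read as unchanged enterocyte genes. Hes1 was at 78.5 and 80.4 ppm, Mki67 at 338 and 393 ppm and Top2a at 577 and 582 ppm. Lgr5, which like Top2a entered the choice of these cells, was at 733 and 527 ppm and higher in all 4 sets. It had a value in 78.6% of the 145 cells and 57.2% of the 5185 cells, and Top2a in 65.5% and 74.4%. Muc2, at 86.1 and 76.9 ppm, Gfi1, at 1.27 and 0.40 ppm, and Spdef, at 1.27 and 3.29 ppm, were not called. 

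The same genes were followed over the number of markers that a crypt cell carried, without the 200-cell border. The cells with Top2a or Lgr5 and the 4 genes at 0 held 3835 with 0 markers, 1368 with 1 and 127 with 2 or 3, and these had medians of 2564, 2789 and 3183 detected genes. Sox4 was at 137, 228 and 350 ppm over 0, 1 and 2 or 3 markers. Rgcc was at 31.8, 49.9 and 88.4 ppm, Foxa3 at 20.4, 28.9 and 57.0 ppm, Marcksl1 at 15.8, 26.4 and 55.9 ppm, Mycl at 14.5, 21.3 and 37.2 ppm and Lfng at 6.73, 11.7 and 32.6 ppm. All of these had their highest level with 2 or 3 markers. Cbfa2t3, at 4.65, 4.70 and 25.6 ppm, and Dll4, at 2.69, 3.72 and 17.5 ppm, differed mainly between 1 marker and 2 or 3.

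Hes1, Spdef and Mki67 had no steady order over the number of markers, and Muc2 was lower with more markers. Hes1 was at 77.8, 96.2 and 72.2 ppm, Spdef at 3.15, 3.49 and 2.33 ppm and Mki67 at 413, 353 and 377 ppm. Muc2 was at 78.1, 58.0 and 51.2 ppm. Ascl2 was at 37.8, 64.7 and 68.7 ppm, so that it was already high with 1 marker. With cells of 0 and 1 marker drawn to the same detected genes as the 127 cells, Sox4 was at 137 and 221 ppm, Rgcc at 31.6 and 47.5 ppm and Lfng at 6.80 and 11.6 ppm. In the 4 barcode sets with at least 10 of the 127 cells, Sox4, Rgcc, Foxa3, Foxa2, Cbfa2t3, Mycl and Marcksl1 were higher with 2 or 3 markers than with 0 in all 4, and Lfng and Dll4 in 3. These levels come from cells pooled over sets and overlap with the 145 cells above, so they are not a separate sample.

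**Figure D5:**
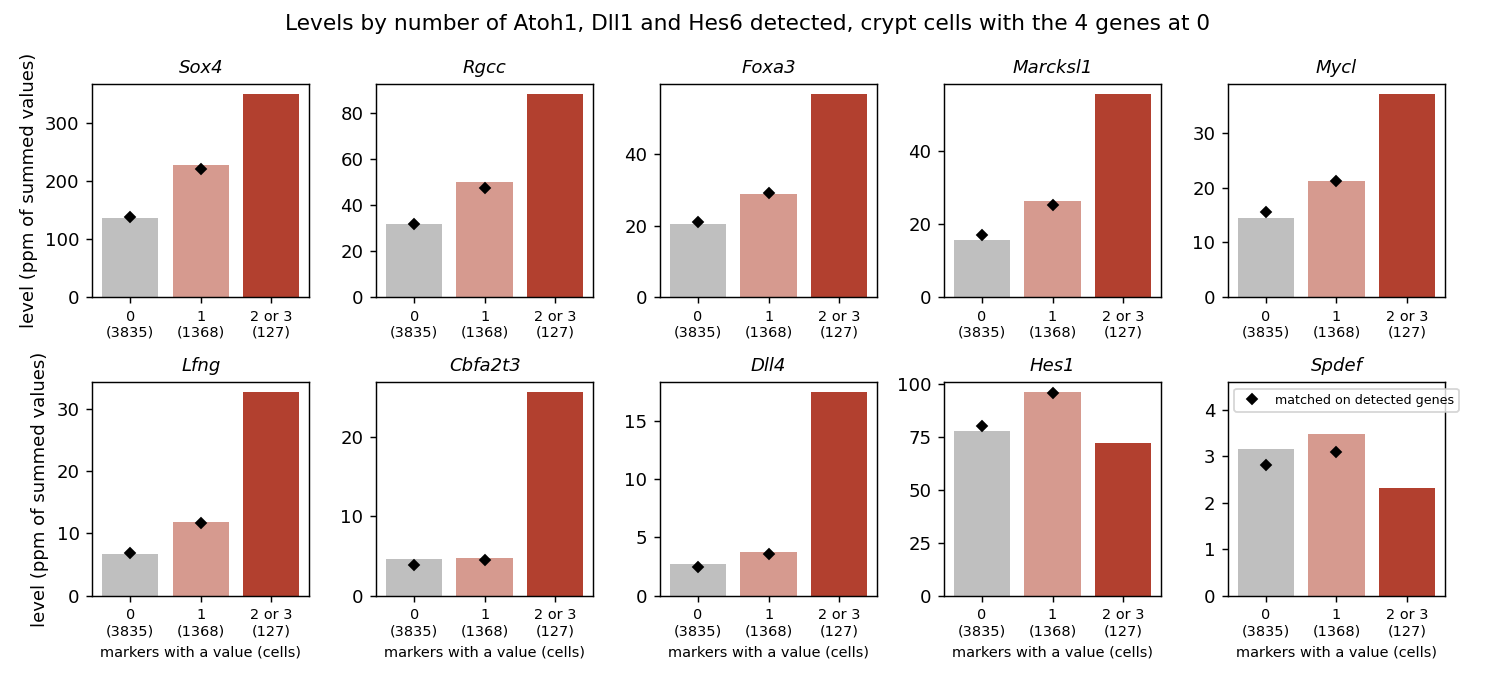
Levels of 10 genes (ppm of summed values) in crypt cells with the 4 genes at 0, by the number of the markers Atoh1, Dll1 and Hes6 with a value; the number of cells is in brackets and diamonds give cells of 0 and 1 marker matched on detected genes. The bars of Sox4, Rgcc, Foxa3, Marcksl1, Mycl and Lfng increase with the number of markers, while Hes1 and Spdef are lowest with 2 or 3.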

How the data were processed

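The deposited table of the diet group gives 1 whole number per gene and cell. Cell Ranger with the build mm10 made it, per the submitters' processing notes. Its version, any cell filter and the step that made the values stay unnamed in the labels and files. The deposited values were treated as a score, not as counts, because the value 2 was more frequent than 1 in 25.3% of cells. The count analysis allowed for in the design was therefore not used.

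For each group of cells the summed values of a gene were divided by the summed totals (ppm). Other crypt cells were weighted to the spread of the chosen cells over barcode sets. Log2 differences used a pseudocount of 5 ppm, which understates differences of low genes, and a level filter of 20 ppm. Barcode sets with at least 15 chosen cells gave the direction. Intervals of shares are exact binomial (Clopper-Pearson, 95%) and cover counting error only. Scrublet (scanpy 1.11.5), run on each barcode set, marked doublets, which were kept. Because the caller marked 0.161% of cells, it has not worked, or doublets had been removed before, and doublets may remain. Analyses used scipy 1.17.1, numpy 2.4.6, pandas 2.3.3 and matplotlib 3.10.9 under Python 3.11.15. The code of the calls was checked on simulated Poisson counts, with a pass judged at totals well above those of the chosen cells. That check does not show how often the calls are right at the real totals.

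The chosen cells, the gene lists and the alternatives were set with earlier results of these data known. Named genes were the called genes, up to 4 members of each list with the largest differences at 20 ppm or more, the genes of the rule, and Neurog3, Gfi1, Spdef, Dll4, Hes1, Muc2 and Mki67. Lfng, Hes5, Nrarp, Neurod2, Insm1, and all genes named from the 145 cells or by number of markers were chosen after their values were seen. Positions are from GENCODE vM21 (GRCm38) and promoters from RefSeq (GRCm38.p6).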

Additional observations from a re-analysis of the deposited data

Results flagged for a closer look

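Of 27 values compared over 6 barcode sets, 2 had a set far from the others, and chance alone flags about 1 in 20 such groups. The G1/S list had a median log2 difference of -0.9756 in barcode set 6, which held 19 precursor-marker cells, against 0.0112 to 0.299 in the other 5 sets. The goblet cell list had a median of -0.7173 in barcode set 7, which held 60 precursor-marker cells, against -0.292 to -0.0863 in the other 5 sets.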

How the results depend on the processing

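No paired analysis was possible because the table is 1 pooled sample and no test was run. The cause of each change below was not tested. The number of genes called higher against other crypt cells (3) was 28 with 100 chosen cells, 22 with the 112 cells of 2 or 3 markers, 27 against other crypt cells with the 4 genes at 0, 10 against cells with Lgr5, 6 against cells with Top2a, 12 against all other cells and 13 against all other cells with the 4 genes at 0. It was 1 with cells matched on detected genes, 5 with a pseudocount of 1 ppm, 1 with a level filter of 50 ppm, 8 with no filter, 0 without rescaling and 5 without sets 4 and 7. With all 165 cells of 2 or 3 markers it was 9, and for the 145 cells with Top2a or Lgr5 it was 18 against all other crypt cells and 17 against those with the 4 genes at 0. The number called lower (4) was in the same way 16 with 100 chosen cells, 19 with 112, 2 against cells with Lgr5, 28 against all other cells, 37 against those with the 4 genes at 0, 1 at 50 ppm, 11 with no filter, 7 without rescaling, 21 with the 165 cells, and 53 and 20 for the 145 cells. Leaving out 1 barcode set at a time gave 3 to 6 genes higher and 4 to 6 lower. Without rescaling, the median of all genes was -0.15 instead of 0.01, so the differences are relative to that shift.

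The number of genes called higher in the 145 cells with Top2a or Lgr5 against cells with the 4 genes at 0 (17) was 32 with a pseudocount of 1 ppm, 6 at 50 ppm, 32 with no filter, 56 from 100 chosen cells, 6 from 400, 49 with at least 2 markers and 29 without sets 4 and 7. The number called lower (20) was 38, 6, 69, 99, 10, 64 and 55 in these settings and 37 without rescaling. Leaving out 1 set gave 17 to 29 higher and 17 to 55 lower. Pgm2l1 turned to 0.021 with the 165 cells of 2 or 3 markers, and the other named genes with a call kept their direction in all alternatives.

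List medians below are over the genes that pass the filter in each setting. The stomach list was below 0 and the enteroendocrine precursor list above 0 in all alternatives, with -3.65 for the stomach list against all other cells and 0.14 for the precursor list with no filter. Secretory fate factors were 0.23 with 112 cells, 0.35 against crypt cells with the 4 genes at 0, 0.33 against all other cells, 0.42 against those with the 4 genes at 0 and -0.018 without rescaling. Against crypt cells with the 4 genes at 0, G2/M was -0.54, goblet 0.53, Paneth 0.41, enteroendocrine products 0.53, enterocyte 1.25 and distal genes 0.94. Against cells with Lgr5, G2/M was 0.23, early absorptive 0.16, secretory machinery -0.017 and distal 0.87. Against all other cells, G2/M was 0.30, cell cycle exit -0.073, goblet -0.69, enterocyte -0.57, early absorptive -0.57, proximal -0.61 and distal -0.47. Against all other cells with the 4 genes at 0, cell cycle exit was 0.037, goblet 0.41, Paneth 0.45, enteroendocrine products 0.50, early absorptive -0.49 and proximal -0.82. Cell cycle exit was 0.10 with 112 cells, 0.14 when matched on detected genes, -0.0073 with no filter, -0.025 without rescaling, and 0.0012 to 0.32 without single sets. Paneth and enteroendocrine products were -0.50 and -0.80 with 112 cells and -0.59 and -0.90 with 165, and the products were -0.53 with 100. At 50 ppm, Notch genes were -0.20, goblet -0.45 and enteroendocrine products -0.63. Without rescaling, early absorptive was -0.25 and secretory machinery -0.35. The 145 cells had, against all other crypt cells, Notch genes 0.20, cell cycle exit -0.16, goblet -0.42, enteroendocrine products -0.60, enterocyte -0.79, early absorptive -0.62, proximal -0.42 and distal -0.56. Against those with the 4 genes at 0 they had cell cycle exit -0.22, goblet 0.26, Paneth 0.22, enteroendocrine products 0.28, early absorptive -0.30 and proximal -0.35.

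Counting a value of at least 2, the share of precursor-marker cells was 0.5% for Neurog3, 0% for Gfi1, 1% for Dll4, 8.5% for Hes1, 19.5% for Muc2, 35% for Mki67, 38.5% for Top2a and 45.5% for Lgr5. With 100 chosen cells, sets 1 and 4 held 0% of them, set 7 23% and set 8 24%. The unknown scale of the values and the small number of chosen cells limit what can be seen. In set 6, a single unit of value in 1 precursor-marker cell equals 9.87 ppm, so levels of genes near 20 ppm rest on few cells.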

Other observations

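The 145 precursor-marker cells with Top2a or Lgr5 were also high in further genes when set against all other crypt cells. Ascl2 was at 83.6 and 35.4 ppm (log2 difference 1.13), Bex1, an adaptor protein gene found in some intestinal stem cells, at 148 and 62.3 ppm (1.19), and Tubb2b, a beta-tubulin gene, at 39.3 and 13.9 ppm (1.22). H2-Ab1, a class II histocompatibility gene, was at 79.8 and 35.0 ppm (1.08). Against other crypt cells with the 4 genes at 0 none of the 4 was called, with differences of 0.85, 0.97, 0.98 and 0.89.

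Reg1, a secreted lectin of the proximal intestine, went in opposite directions between sets. It was at 1825 and 2260 ppm in precursor-marker cells of sets 2 and 6, against 178 and 120 ppm in other crypt cells of these sets. In sets 3, 5, 7 and 8 it was at 53.6, 24.3, 42.4 and 4.69 ppm in precursor-marker cells, against 257, 181, 203 and 222 ppm. Reg1 had a value in 7.59% of the 145 cells with Top2a or Lgr5 and in 12.7% of the 55 without, so these levels rest on few cells.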
